A study of Homo sapiens with 10 samples.

Results

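The regions described here are 1311 γH2AX peaks of irradiated K562 cells that lay in stretches nearly free of H3K27me3 within 100-kb windows that were rich in this mark; they are called islands below. They were taken from the 46072 peaks of replicate 2 at 1 h of recovery, of which 22711 (49.3%) overlapped a peak of replicate 1 by at least 1 bp; the islands are 5.77% of these shared peaks. A shared peak was an island when its centre fell in a 100-kb window whose mean H3K27me3 was at least 2 times the library mean and in a 1-kb bin whose H3K27me3 was below 0.3 of it. The islands were thus chosen by the K562 1 h γH2AX peaks of both replicates and by the K562 H3K27me3 track, and the values of these tracks at the islands are given below as descriptions without a test. Of the other shared peaks, 252 lay in H3K27me3-rich windows but in bins at or above 0.3, and 21148 lay in other windows.

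γH2AX is histone H2AX phosphorylated on its C-terminal tail by the kinases that respond to DNA double-strand breaks, and it spreads from a break along the chromatin fibre. H3K27me3 is the trimethylation of histone H3 at lysine 27 laid down by Polycomb repressive complex 2; it covers broad domains of silent genes, many of them developmental regulators.

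The study profiled both marks by CUT&RUN, in which a nuclease tethered to an antibody releases the bound chromatin for sequencing, and its stated purpose was to examine how double-strand breaks are recognised in 2 cell types. K562 is a leukaemic line of erythroid character and HepG2 a hepatocellular carcinoma line; each is a single established line. Irradiated cells received 6 Gy of gamma rays from a cobalt source. The libraries used were γH2AX of K562 after 24 h (2 libraries) and after 1 h of recovery (2 libraries), γH2AX of HepG2 after 1 h (1 library), H3K27me3 of K562 after 1 h (1 library), and H2AX of untreated K562 and of untreated HepG2 (2 libraries each). Titles were followed for the H2AX libraries, since histone H4 stands in their antibody label. No irradiated H2AX and no unirradiated γH2AX or H3K27me3 library was among those used.

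Values are levels, the depth in the 1-kb bins that a peak touched divided by the mean depth of that library. The mean depth per base was 1.44 and 1.78 in the K562 1 h γH2AX libraries, 1.10 in the H3K27me3 library, and 0.521 to 0.672 in the HepG2 γH2AX and all H2AX libraries. The smallest steps of the track values were 60 bp for K562 at 1 h, in both marks, and 41 bp in all other libraries. The read format of K562 1 h γH2AX thus differed from that of K562 H2AX, K562 24 h γH2AX and HepG2 γH2AX. It cannot be told apart from any of these contrasts. The longest segment that H2AX showed in HepG2 and not in K562, chr9:20800001-26600000 (hg19), had a level of 0.00482 or less in all K562 libraries of either mark and 1.04 in HepG2 γH2AX, so the libraries fit their line labels. The 24 h libraries stood apart from each other. Replicate 1, with the lowest depth of all (0.326), read 0 in every one of the 1311 islands. The same held for 22695 of all 22711 shared peaks, while its median in the surroundings of the islands was 1.31. Replicate 1 was left out of the comparisons, and 24 h values below come from replicate 2 alone (mean depth 0.592).

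The name "inside H3K27me3 domains" holds for a minority of the islands. A rich stretch was defined as a running mean over 5 bins of at least 2. From the island centres, the nearest rich stretch lay at a median of 20 kb (interquartile range 13 to 30 kb, full range 2 to 67 kb). Rich stretches on both sides within 50 kb were found for 350 islands (26.7%), against 3.40% of the shared peaks in other windows, and within 25 kb for 132 islands (10.1%). With a reach of 150 kb, 869 islands (66.3%) had rich chromatin on both sides and 442 (33.7%) had it on one side only. Most islands thus sat in a gap bordering a rich stretch, and the 350 are called enclosed below. The contiguous run of bins below 0.3 around an island had a median length of 14 kb (interquartile range 8 to 24 kb, longest 110 kb), against 24 kb around the shared peaks in other windows. These contrasts with other windows follow in part from the rule, which chose the windows of the islands for high H3K27me3.

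**Figure D1:**
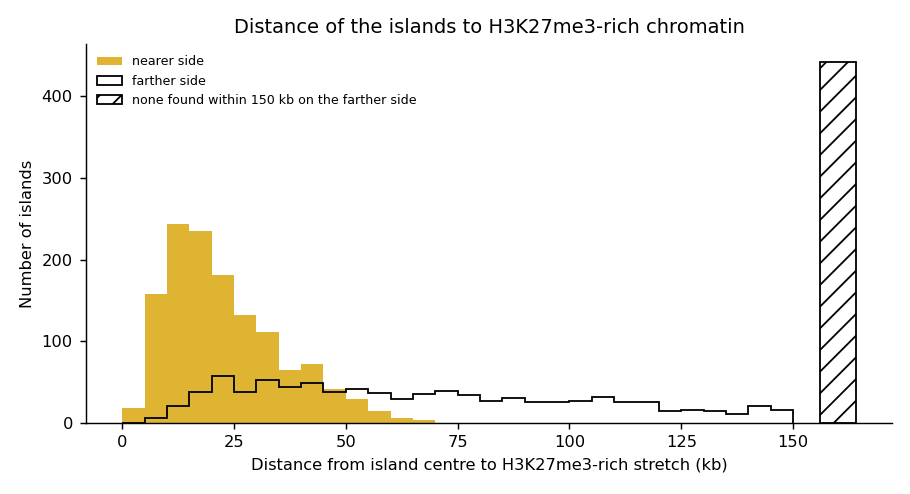
Distance in kb (horizontal axis) from the centre of each of the 1311 islands to H3K27me3-rich chromatin, as the number of islands per 5 kb; filled bars show the nearer side and the outline the farther side. The nearer side has a median of 20 kb, and the hatched bar holds the 442 islands with no rich stretch within 150 kb on the other side.

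The islands were grouped along the genome. They fell in 617 of the 4918 H3K27me3-rich windows (12.5%); 285 of these windows held 1 island, 288 held 2 to 4, and 44 held 5 or more, with 9 as the highest number. Counted by gap between rich stretches, 594 gaps held islands and 1040 islands shared their gap with at least 1 other, so neighbouring islands are not independent regions. The next island lay at a median distance of 13.6 kb. Windows with islands had a median H3K27me3 of 2.88, and rich windows without islands 3.14.

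Chromosome 1 carried 250 islands, or 43.0 per 100 rich windows, followed in density by chromosome 7 with 120 (39.1 per 100) and chromosome 16 with 82 (37.1 per 100). Chromosomes 13 and X carried 2 and 3 islands, or 2.6 and 4.23 per 100 rich windows, and chromosome 14 carried 8 (8.99 per 100). All shared peaks were also few there, with 132 on chromosome 13, 111 on X and 273 on chromosome 14, against 3321 on chromosome 1. Of the islands, 12.2% lay within 5 Mb of the end of a chromosome, against 15.4% of the rich windows and 7.71% of the shared peaks in other windows.

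As peaks, the islands were of ordinary strength. Their median length was 2009 bp (interquartile range 1031 to 3787 bp, longest 35862 bp), against 1656 bp for the shared peaks in other windows, and together they covered 3.905 Mb. The fold enrichment in the authors' list had a median of 1.75 in the islands and 1.76 in the other windows. A q-value under 0.05 in that list was held by 185 islands (14.1%), against 13.3% of the shared peaks in other windows. The other 1126 islands are in the authors' list with a q-value of 0.05 or more.

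The 2 marks mirrored each other across the islands, as the choice of islands fixes in part. The median level of γH2AX at 1 h in the islands was 3.39 in replicate 1 and 3.998 in replicate 2, and in the surroundings, meaning the other bins of the same 100-kb window touched by no 1 h peak, 0.997 and 0.883. The lowest island still read 1.53 and 1.59. H3K27me3 had a median of 0.109 in the islands and 3.55 in the surroundings, and the centre bin was at 0 in 414 islands; a single 60-bp read in a bin adds 0.0547.

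The fall of γH2AX was steepest within 2 kb of the centre and continued over the whole range shown. Averaged over all islands, it stood at 3.73 and 4.47 in the centre bin, at 2.96 and 3.46 at a distance of 2 kb towards higher coordinates, and at 2.73 and 3.19 at 5 kb. At 20 kb it was 1.97 and 2.13, and at 60 kb 1.33 and 1.30. H3K27me3 took the opposite course, with 0.0966 in the centre bin, 0.238 at 5 kb, 1.66 at 20 kb and 3.54 at 60 kb. Around the shared peaks in other windows, γH2AX at 60 kb was still 1.98 and 2.14.

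**Figure D2:**
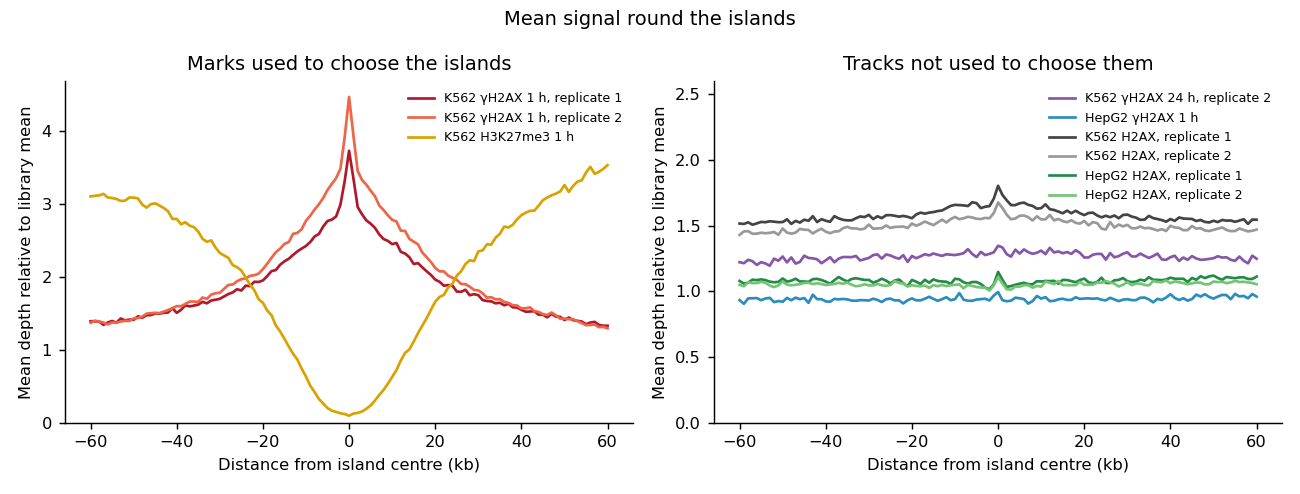
Mean depth relative to the library mean (vertical axis) against the distance from the island centre in kb (horizontal axis), averaged over the 1311 islands; each line is 1 library. On the left, γH2AX at 1 h reaches 3.73 and 4.47 in the centre where H3K27me3 falls to 0.0966; on the right, where the scale is narrower, K562 H2AX reaches 1.80 and 1.68 in the centre, and HepG2 H2AX 1.15 and 1.11.

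The islands were slightly higher in γH2AX than the shared peaks of other windows, and the chromatin around them was lower. The median level averaged 3.69 ± 0.43 in the islands and 3.55 ± 0.358 in the shared peaks of other windows (SD, n = 2 libraries); within the libraries it was 3.39 against 3.30 in replicate 1 and 3.998 against 3.81 in replicate 2. The surroundings averaged 0.94 ± 0.0805 around the islands and 1.84 ± 0.0764 around the other peaks, without overlap between replicates. The local log2 ratio, log2(level + 0.05) of a peak minus that of its surroundings, accordingly averaged 1.89 ± 0.295 in the islands and 0.94 ± 0.0776 in the shared peaks of other windows. The 252 other shared peaks of rich windows had a local log2 ratio of 1.79 ± 0.252, so a high ratio was not particular to the islands. Their level was 4.59 ± 0.379 and their surroundings were at 1.28 ± 0.0914. Because the windows were chosen for H3K27me3 and the peaks for γH2AX, no test was made of these differences. Median untreated K562 H2AX was slightly higher in the islands too, with 1.68 against 1.62 in replicate 1 and 1.58 against 1.53 in replicate 2. The part of this, and of the greater length of the islands, in their γH2AX level was not tested.

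Within the rich windows, the share of bins lying in peaks of both replicates followed the H3K27me3 of the bin. Bins below 0.3 made up 37658 of the 487803 bins of these windows (7.72%), against 56.4% of all bins. Among bins with enough H2AX signal (at least 0.5), 12.7% of those with H3K27me3 below 0.1 lay in peaks of both lists. The share was 10.3% from 0.1 to 0.2, 7.31% from 0.2 to 0.3, 4.34% from 0.3 to 0.5, 0.959% from 0.5 to 1 and 0.0231% from 2 to 4. Of the bins below 0.3 with that H2AX signal, 10.5% lay in peaks of both lists in rich windows and 3.78% in other windows. Untreated K562 H2AX also differed between these bins, with means of 1.432 and 1.367 in rich windows and 1.035 and 1.053 in other windows. HepG2 H2AX means were 0.983 and 0.966 in rich windows and 1.029 and 1.039 in other windows. The part of the K562 H2AX difference in these shares was not tested. Without the H2AX limit, most low bins of the rich windows were outside any peak: 28245 were touched by neither list, 5909 by 1 list and 3504 by both.

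The bins outside any peak were not at the level of the H3K27me3-rich chromatin either. Low bins with no peak had a median 1 h γH2AX of 1.25 and 1.31, and rich bins with no peak 0.504 and 0.340. Low bins touched by 1 list had 2.74 and 3.42, and those touched by both 3.78 and 4.31. K562 H2AX was 1.12 and 1.08 in the low bins with no peak and 1.21 and 1.16 in the rich bins with no peak. It thus did not share the order of these 2 classes, for which no H2AX limit was set. HepG2 H2AX was likewise lower in the low bins with no peak (0.780 and 0.768) than in the rich ones (0.985 and 0.960). Among bins of rich windows with K562 H2AX of at least 0.5, with or without a peak, K562 H2AX did not run in 1 direction. Its means were 1.432 and 1.367 in bins below 0.3 and 1.21 and 1.175 in bins from 2 to 4. They were 1.338 and 1.27 in bins from 4 to 8, and highest from 8, at 2.01 and 1.867. These bins were kept by K562 H2AX itself. Over the low bins K562 H2AX also followed the peaks, with medians of 1.53 and 1.43 in bins touched by 1 list and 1.71 and 1.61 in those touched by both. Rich bins touched by both lists were few (52) and had a K562 H2AX median of 7.29 and 6.64, far above the other classes.

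**Figure D3:**
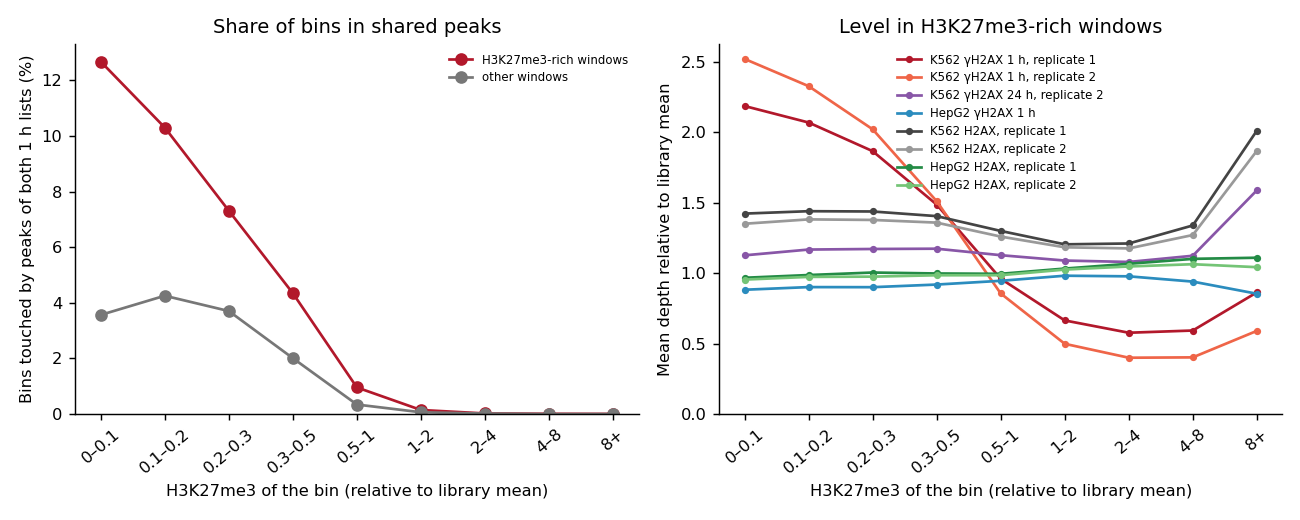
Left, percent of 1-kb bins touched by peaks of both 1 h lists (vertical axis) in classes of relative H3K27me3 (horizontal axis), for H3K27me3-rich and other windows. Right, mean relative depth of each library in the same classes of the rich windows. The 1 h γH2AX lines fall from the lowest class to the class from 2 to 4, while HepG2 γH2AX stays between 0.854 and 0.981. K562 H2AX goes from 1.42 and 1.35 in the lowest class to 1.21 and 1.175 in the class from 2 to 4. It is highest in the class from 8, at 2.01 and 1.867.

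The islands with the highest local ratio at 1 h, among those with a q-value under 0.05, show the pattern at single regions. At chr19:34291373-34298183 (hg19, as are all positions), γH2AX was 2.96 and 4.32, H3K27me3 was 0.0818, and K562 H2AX was 1.23 and 1.04. In its surroundings γH2AX was 0.467 and 0.396 and H3K27me3 3.54. Rich stretches lay 9 and 18 kb away on its 2 sides, so it was enclosed, and its mean local log2 ratio of 2.92 was the highest of these islands. HepG2 γH2AX there was 0.523, and HepG2 H2AX 0.862 and 0.630.

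The island chr1:33789880-33801314, 11435 bp long, had γH2AX of 4.31 and 5.78 over 0.714 and 0.536 in its surroundings, with H3K27me3 at 0.154 over 4.51. K562 H2AX differed between its replicates there, with 2.27 and 1.48. A pair of islands on chromosome 6 shared a window of H3K27me3 6.09: chr6:151193661-151199516 had γH2AX of 4.70 and 5.21, and chr6:151190733-151191598 had 4.30 and 4.88, over 0.761 and 0.602 in their common surroundings. Neither of that pair had rich chromatin on its other side within 150 kb.

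The remaining islands of that group were shorter. At chr3:42597254-42597751, 498 bp long, γH2AX was 6.54 and 5.46 with H3K27me3 at 0.109. At chr18:29107214-29107925 it was 4.81 and 4.53, with rich stretches 24 and 33 kb away. At chr2:177199674-177200699 γH2AX was 4.59 and 3.83 and at chr2:38599477-38600806 it was 4.41 and 5.37. HepG2 γH2AX was also above its library mean at these chromosome 2 islands, with 2.40 and 2.32, and HepG2 H2AX was 1.71 and 1.08 at the one and 2.27 and 1.81 at the other. None of the 8 islands passed any of the 3 tests described below.

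The window with the most islands, chr7:132700001-132800000, held a border rather than a gap. Its 9 islands spanned chr7:132698316-132763042, all on the side without H3K27me3, and no rich stretch lay within 150 kb beyond them. In the 68 bins before the rich stretch γH2AX averaged 3.98 and 4.61 and H3K27me3 0.198; in the 32 bins from its start γH2AX averaged 0.946 and 0.608 and H3K27me3 10.7. The islands themselves ranged from 2.88 to 5.84 in replicate 1 and from 4.24 to 6.14 in replicate 2, and the whole stretch carried nearly as much γH2AX. K562 H2AX averaged 2.24 and 1.95 before the rich stretch and 1.80 and 1.85 from its start. HepG2 γH2AX was 0.994 and 1.01 in these stretches, and HepG2 H2AX was 1.12 and 1.05 before the border and 1.06 and 1.10 from it. All 9 peaks had q-values of 0.0817 or more in the authors' list.

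Untreated H2AX was tested as a measure outside the choice of islands, although the peaks themselves were called in K562. K562 H2AX was modestly higher in the islands than around them, and HepG2 H2AX was not. The K562 H2AX medians were 1.68 and 1.58 in the islands and 1.37 and 1.30 in the surroundings. Above their surroundings lay 1046 and 986 of the 1311 islands (79.8% and 75.2%), against 74.7% and 71.2% of all shared peaks with surroundings. HepG2 H2AX medians were 1.05 and 1.02 in the islands and 0.988 and 0.964 in the surroundings. Here 669 and 661 islands lay above (51.03% and 50.42%), against 61.45% and 61.12% of all shared peaks with surroundings. The median local log2 ratio averaged 0.22 ± 0.0222 in K562 and 0.01 ± 0.00554 in HepG2 (SD, n = 2 each). The shared peaks in other windows had 0.18 ± 0.0199 in K562 and 0.12 ± 0.00355 in HepG2.

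**Figure D4:**
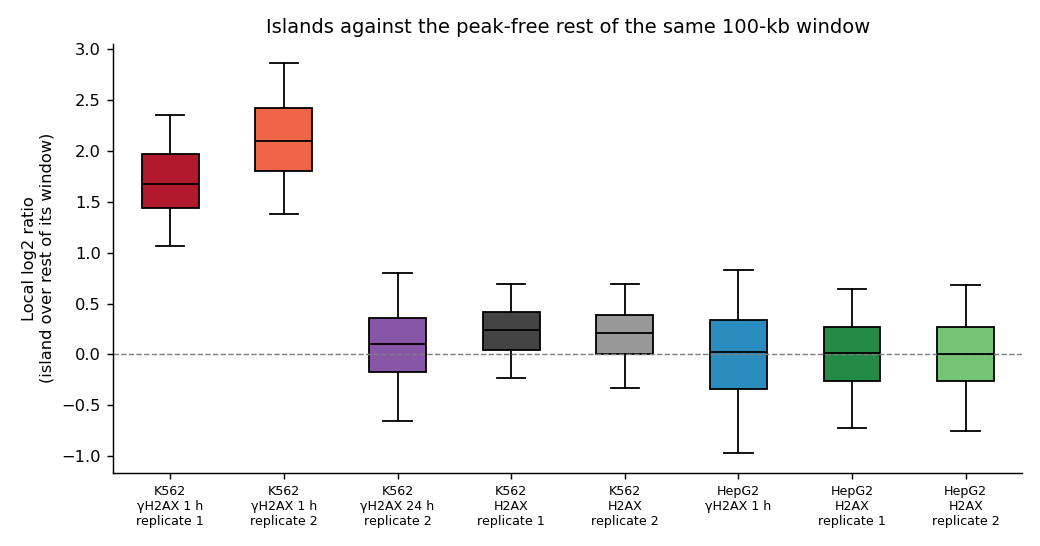
Local log2 ratio (vertical axis) of the 1311 islands over the peak-free rest of their 100-kb window in 8 libraries (horizontal axis); boxes show median and quartiles, whiskers the 5th and 95th percentiles. The 1 h γH2AX boxes lie at medians of 1.68 and 2.10, K562 H2AX at 0.24 and 0.21, 24 h replicate 2 at 0.10, and the HepG2 libraries between 0.00 and 0.02; H3K27me3, at −4.58, is not drawn.

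The difference between K562 and HepG2 in the local H2AX ratio was positive in 977 of the 1311 islands (74.5%), with a median of 0.21, against 0.08 over all shared peaks tested. It was fitted with limma across 22430 shared peaks with Benjamini-Hochberg adjustment. A single island was higher in K562 at an adjusted p under 0.05 and 0 were lower, against 0.0178% of all peaks tested called higher and 0.0% called lower; 195 islands had an unadjusted p under 0.05. The island was chr6:44409222-44409658, with K562 H2AX of 2.90 and 2.68 over 1.62 and 1.57 around it, and HepG2 H2AX of 0.549 and 0.794 over 1.44 and 1.37 (log2 difference 1.82 ± 0.256 SE, limma adjusted p = 0.0379). It was not called without any one of the 4 K562 γH2AX 1 h and H2AX libraries (0 islands, limma, 111 to 181 at an unadjusted p under 0.05) or with only the H2AX libraries in the fit (0 islands, limma, 169 unadjusted), while 22 and 21 islands were called without HepG2 H2AX replicate 1 and replicate 2.

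The strongest differences in the other direction did not pass. At chr3:38033935-38034343 K562 H2AX was 1.34 and 1.20 and HepG2 H2AX 1.91 and 1.42, and the difference of local ratios was −1.17 (limma adjusted p = 0.121). At chr17:77802094-77802481 K562 H2AX was 0.976 and 1.18 and HepG2 H2AX 2.47 and 2.19 (−1.05, limma adjusted p = 0.131), and at chr21:47585129-47586473 the difference was −0.84 (limma adjusted p = 0.172). These 3 were named because they had the lowest p in this direction, so the order of the lines at them follows from that choice.

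Without the surroundings as reference, the lines differed widely. By level, 615 islands were higher in K562 H2AX and 17 lower (limma adjusted p under 0.05), or 46.9% and 1.3% of the islands, against 39.6% and 1.85% of the 22711 shared peaks. The ratio of K562 to HepG2 H2AX over the 100-kb window had a median of 1.404 at the islands, 1.409 at the shared peaks in other windows and 1.20 over all rich windows. A ratio of at least 2 was found for 160 islands (12.2%), for 100 (39.7%) of the 252 other shared peaks of rich windows and for 12.7% of the shared peaks in other windows. The part of this window-wide ratio in the level differences was not tested; the local ratio, which sets each island against its own window, differed less.

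HepG2 γH2AX at 1 h showed no rise over the islands as a group. Its median was 0.904 in the islands and 0.863 in the surroundings, and the median local log2 ratio was 0.02. Above their surroundings lay 672 of 1311 islands (51.3%), against 54.5% of all shared peaks with surroundings. The difference between the local ratios of HepG2 γH2AX and HepG2 H2AX had a median of 0.00 in the islands and −0.06 over all shared peaks tested. Of the authors' 170 HepG2 γH2AX peaks 0 overlapped an island or any shared K562 peak, and the centre of only 1 of them lay in the bins used, so this list says nothing about the islands.

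In the fit, 13 islands were higher and 35 lower in HepG2 γH2AX than in HepG2 H2AX (limma, Benjamini-Hochberg adjusted p under 0.05). These are 0.992% and 2.67% of the islands, near the 0.794% and 3.56% of all shared peaks tested that were called higher and lower. HepG2 γH2AX is a single library, assumed to vary like the groups with 2. The lower calls rested on few reads: the called islands held a median of 6.22 reads of 41 bp in that library, against 37.0 in all islands, and 21 of the 35 touched only 1 or 2 bins. The part of this low read number in the calls was not tested. The 48 calls became 9 and 9 without K562 γH2AX 1 h replicate 1 and replicate 2, and 94 and 93 without HepG2 H2AX replicate 1 and replicate 2. They became 0 when only HepG2 libraries were fitted (limma, smallest adjusted p 0.0526, 166 islands at an unadjusted p under 0.05) and 0 with K562 24 h replicate 1 in the fit (1 island at an unadjusted p under 0.05).

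Of the islands called higher, chr1:202529234-202529557 had HepG2 γH2AX of 1.93 over 0.863 around it, and HepG2 H2AX of 0.657 and 0.448 over 1.00 and 0.952 (log2 difference 1.91 ± 0.361 SE, limma adjusted p = 0.0119). Its K562 1 h γH2AX was 1.96 and 1.98, below the lower quartile of the islands. At chr7:127950181-127951377 HepG2 γH2AX was 2.76, the highest of all islands, over 0.678, with HepG2 H2AX of 1.24 and 1.47 (log2 difference 1.40, limma adjusted p = 0.0168). At chr7:105729885-105730677 it was 2.25 over 0.975, with HepG2 H2AX of 1.05 and 1.05. At chr7:151199457-151200014 and chr16:27488121-27489416 the HepG2 γH2AX levels were 1.25 and 1.80, and HepG2 H2AX there was 0.548 to 0.619, below its surroundings in both replicates.

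Of the islands called lower with the smallest p, 3 were listed at 0 in HepG2 γH2AX, so no fold is given. They were chr15:29997239-29998020, with HepG2 H2AX of 0.817 and 1.09, chr15:75202635-75202977, with 1.05 and 0.704, and chr9:133508160-133508951, with 0.511 and 0.704. At chr12:95388158-95388926 HepG2 γH2AX was 0.236 and HepG2 H2AX 1.65 and 1.73 (log2 difference −2.50 ± 0.304 SE, limma adjusted p = 0.00116). At chr1:111728806-111730924 it was 0.131, with HepG2 H2AX of 1.36 and 1.15. All 5 had K562 1 h γH2AX between 2.53 and 4.55.

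At 24 h the islands stood out little from their surroundings in the library that could be used. In replicate 2 γH2AX had a median of 1.27 in the islands and 1.13 in the surroundings, and 778 of 1311 islands (59.3%) lay above, nearly the share of the shared peaks in other windows (59.6%). The K562 H2AX medians were 1.68 and 1.58 in the islands, and the difference between the local ratios of 24 h γH2AX and K562 H2AX had a median of −0.11 in the islands and −0.08 over all shared peaks tested. Read against H2AX, 0 islands were higher and 4 lower (limma, adjusted p under 0.05; 147 islands at an unadjusted p under 0.05), against 0.0267% and 0.553% of all shared peaks tested.

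The 4 islands were chr1:182330558-182332723, chr6:111599048-111600158, chr8:98664327-98664609 and chr3:186274935-186275480. The first had 24 h γH2AX of 0.577 over 1.51 around it and K562 H2AX of 2.06 and 2.40 over 1.57 and 1.57 (log2 difference −1.80 ± 0.295 SE, limma adjusted p = 0.0148). The other 3 had 24 h levels of 0.415 to 0.669 and adjusted p-values of 0.0402 to 0.0478 in limma. Called islands held a median of 16.7 reads in that library, against 58.6 in all islands. Calls numbered 0 without K562 γH2AX 1 h replicate 1, without its replicate 2 or without K562 H2AX replicate 2 (limma, 132, 134 and 108 islands at an unadjusted p under 0.05). They also numbered 0 with K562 24 h replicate 1 in the fit (limma, 42 at an unadjusted p under 0.05). They numbered 2 without K562 H2AX replicate 1, and 29 and 30 without HepG2 H2AX replicate 1 and replicate 2.

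The highest differences at 24 h did not pass. The island chr11:35806864-35808011 had 24 h γH2AX of 2.81 over 1.09, with K562 H2AX of 1.55 and 1.21 over 1.31 and 1.29 (log2 difference 1.24 ± 0.320 SE, limma adjusted p = 0.103). At chr6:44393759-44394660 24 h γH2AX was 2.84 and K562 H2AX 1.67 and 2.05 (0.96, limma adjusted p = 0.144), and at chr16:24209194-24210527 the difference was 1.03 (limma adjusted p = 0.176).

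A few islands on chromosome 22 overlapped peaks that the authors called at 24 h. Of the 8 peaks of replicate 1, 2 overlapped the neighbouring islands chr22:17108149-17113592 and chr22:17114903-17124706, where the track of that library reads 0. Of the 13 peaks of replicate 2, 1 overlapped chr22:20880712-20894554 and 2 overlapped chr22:22642777-22649761. The first 3 islands were high in 24 h γH2AX of replicate 2 and in K562 H2AX, but so were their surroundings. At these islands 24 h γH2AX was 3.58, 3.55 and 4.07, over 3.78, 3.78 and 4.92 around them. K562 H2AX was 4.46 and 4.38, 3.95 and 3.78, and 6.55 and 5.75. Around the first 2 islands it was 4.01 and 4.04, and around the third 7.26 and 6.41. HepG2 H2AX was 0.549 to 1.13 at the 3 islands. At chr22:22642777-22649761, 24 h γH2AX was 0.671 over 2.27 around it and K562 H2AX 1.43 and 1.32 over 2.78 and 2.69, so the average over this island was low although 2 short peaks had been called within it.

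By their definition, enclosed islands stood in a narrower gap than the others, and the H3K27me3 near them follows from it in part. At 20 kb from the centre, on the side of higher coordinates, H3K27me3 averaged 2.53 around enclosed islands and 1.34 around the others, and 1 h γH2AX averaged 1.70 and 1.81 around enclosed islands and 2.06 and 2.24 around the others. Against the rest of the window, the local log2 ratio of 1 h γH2AX averaged 1.97 ± 0.307 in the 350 enclosed islands and 1.86 ± 0.283 in the 961 others (SD, n = 2 libraries). K562 H2AX averaged 0.18 ± 0.00264 in enclosed islands and 0.24 ± 0.0258 in the others, and HepG2 H2AX −0.07 ± 0.0293 and 0.03 ± 0.0137. These are medians of the same libraries in both sets, and single islands overlapped widely. In K562 H2AX replicate 1 the 5th to 95th percentiles were −0.31 to 0.69 in enclosed islands and −0.21 to 0.69 in the others. HepG2 γH2AX was −0.06 in enclosed islands and 0.05 in the others. Enclosed islands had a median length of 2317 bp, and the others 1906 bp.

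Across the islands, the local ratio of 1 h γH2AX was larger closer to rich chromatin, with Spearman's rho of −0.29 and −0.34 against the distance to the nearest rich stretch (n = 1311). The level itself was unrelated to that distance (−0.01 and −0.03), and the surroundings, which enter the local ratio, lie in the same window as the rich stretch. The 1 h replicates ranked the islands alike (rho 0.74 for the local ratio). Local ratios of 1 h γH2AX and K562 H2AX hardly followed each other (0.10 in replicate 1 and −0.01 in replicate 2), although the replicates of K562 H2AX had a rho of only 0.31 among themselves. Levels of 1 h γH2AX and K562 H2AX had a rho of 0.41 and 0.33. Many islands share a window, and all come from the same libraries, so these correlations are descriptions.

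The level of 1 h γH2AX was higher in longer islands in replicate 2, with a median of 3.62 in the 437 shortest and 4.50 in the 437 longest, and less so in replicate 1, with 3.30 and 3.48. In the 437 shortest islands (262 to 1293 bp) the 1 h local log2 ratio had a median of 1.66 and 1.97, and in the 437 longest (3052 to 35862 bp) 1.71 and 2.21. K562 H2AX was 0.26 and 0.23 in the shortest islands and 0.20 and 0.18 in the longest.

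The peaks nearest to the thresholds overlapped in level. Just inside the window threshold, with a window H3K27me3 of at most 2.002, chr1:180136244-180137492, chr10:44104476-44105656 and chr7:152505794-152506935 had 1 h levels of 2.75 and 4.25, 2.91 and 3.904, and 1.77 and 1.71. Just outside, at 1.994 to 1.998, chr8:95395787-95396080, chr10:126801091-126805093 and chr10:126806331-126815404 had 2.46 and 2.71, 2.15 and 3.63, and 2.71 and 3.81. For the bin threshold, chr1:227067091-227071141, chr2:183642593-183645071 and chr2:101028285-101030164 lay inside with centre bins at 0.296 to 0.299 and 1 h levels of 3.13 to 4.39. The nearest outside, chr7:151192965-151196848, chr1:184682749-184685525 and chr1:231053593-231053979, had centre bins at 0.3001 to 0.302 and 1 h levels of 3.81 to 6.48.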

How the data were processed

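CUT&RUN signal tracks and peak lists of 10 libraries were used. The deposited tracks hold coverage as mean depth per base in 1-kb bins of hg19; the values were not scaled to depth by the authors, as far as the values show. Each γH2AX library has a deposited peak list with fold enrichment, −log10 p-value and −log10 q-value, in MACS2 format; the control behind the fold is not given in these sources. The submitters' processing notes name MACS2, SAMtools and BWA 0.7.12.

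Tracks were divided by their mean without chromosome Y. A level is the mean over the bins a peak touches; the surroundings are the other bins of its 100-kb window touched by no 1 h peak (at least 20 bins). Local log2 ratios (pseudocount 0.05, which understates the change of low values) were tested over the shared peaks with H2AX of at least 0.25 in peak and surroundings (22430 of 22711; all 1311 islands passed), by limma 3.58.1 (R 4.3.3) with a mean-variance trend, 9 libraries, 6 group means and 3 residual degrees of freedom, at a Benjamini-Hochberg adjusted p under 0.05. Groups with 1 library take the spread of the others. No label states that replicates came from separate cultures; p-values therefore reflect only library-to-library spread, possibly technical. The fits were tested on simulated data. Read numbers assume steps of 41 bp; 58.7% to 65.3% of low bins in those libraries fell on its multiples. Replicate numbers did not pair the libraries (r of their deviations −0.006 to 0.014).

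Regions were named by rule: the 8 highest 1 h local ratios with q under 0.05, the window with most islands, 3 peaks on either side of each threshold, and up to 5 islands per direction of each test, or 3 where none passed. Islands overlapping 24 h peaks were named after their values were seen. The islands and all rules were chosen with earlier results of these data known. No hg19 annotation was used, so no genes or sequences are given.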

Additional observations from a re-analysis of the deposited data

How the results depend on the processing

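The number of islands was 2067 and 501 with a window threshold of 1.5 and 3, 601 when at least 0.5 of the peak had to overlap and 185 with q-values under 0.05; it moved by less than 1.5 times under the other 3 definitions. Islands called for HepG2 γH2AX, 24 h γH2AX and K562 over HepG2 H2AX numbered 48, 4 and 1. They were 102, 59 and 632 by level, 95, 87 and 694 by level with median-of-ratios scaling, 105, 15 and 0 in the centre bin alone, and 5, 1 and 0 among peaks with q under 0.05 (limma; for the lines 197 and 27 islands at an unadjusted p under 0.05). With K562 24 h replicate 1 in the fit they were 0, 0 and 0 (limma; 1, 42 and 0 islands at an unadjusted p under 0.05), and with only the compared groups 0, 4 and 0 (166, 195 and 169). A pseudocount of 0.2 gave 33, 2 and 1. With a replicate block they were 31, 5 and 0 (for the lines 185 unadjusted), where the replicates share only a number. Leaving out a library gave 9 to 94, 0 to 30 and 0 to 22. Leaving the H3K27me3 library out, chosen after the data were seen, gave 53, 4 and 1. The cause of these shifts was not tested, apart from fewer peaks under the q-value limit.

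Against surroundings 5 to 25 kb away, the median local log2 ratio was 1.21 for 1 h γH2AX, 0.16 for K562 H2AX, 0.04 for HepG2 H2AX and −2.93 for H3K27me3; in the centre bin alone HepG2 H2AX had 0.02. Median-of-ratios scaling gave levels of 3.29 for 1 h γH2AX, 1.08 at 24 h, 0.773 for HepG2 γH2AX, 1.45 for K562 H2AX, 0.887 for HepG2 H2AX and 0.253 for H3K27me3. Depth limits single islands: the median island held 37.0 reads in HepG2 γH2AX, 58.6 at 24 h in replicate 2 and 6 in H3K27me3. A single H3K27me3 library, with no replicate, chose the windows and bins.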
